A study of Mus musculus with 48 samples.

Results

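The genes described here are 8 fatty acid uptake and transport genes of mouse liver: Cd36, Vldlr, Fabp1, Fabp2, Slc27a1, Slc27a2, Slc27a4 and Slc27a5. They were taken by gene symbol from 29221 genes with deposited read counts, and all 8 were found. The counts come from RNA-seq of whole liver from 48 mice in 10 groups, and every mouse, controls included, carried a floxed Pparg gene. Adult females were fed a low fat (LF) diet for 34 weeks, a high fat (HF) diet for 34 weeks, or the HF diet for 18 weeks and then a diet rich in fat, cholesterol and fructose (HFCF) for 16 weeks. Adult males were fed the HF diet for 34 weeks or the same HF and HFCF sequence, with no LF group. After 16 weeks on diet the mice received an adeno-associated virus, either AAV8-TBG-Cre (labelled hepatocyte-specific Pparg knockout) or AAV8-TBG-null (control). The TBG promoter drives Cre in hepatocytes, so that other liver cells keep Pparg. The labels call the LF livers healthy, the HF livers steatotic, and the HFCF livers non-alcoholic steatohepatitis. Each of the 4 male groups held 6 livers and each of the 6 female groups held 4, and each library is from a separate mouse.

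Fatty acids reach hepatocytes bound to albumin or inside lipoproteins, cross the plasma membrane with the help of membrane proteins, are carried through the cytosol by fatty acid binding proteins and are trapped by coupling to coenzyme A. CD36 is a membrane fatty acid translocase and scavenger receptor, and VLDLR is a receptor for triglyceride-rich lipoproteins. FABP1 is the abundant fatty acid binding protein of liver, and FABP2 is its intestinal relative. The Slc27a genes encode fatty acid transport proteins with acyl-CoA synthetase activity: SLC27A1 (FATP1) is known from muscle and fat, SLC27A4 (FATP4) from intestine and skin, and SLC27A2 (FATP2) and SLC27A5 (FATP5) from liver, where SLC27A5 also couples bile acids to coenzyme A. PPARG is a nuclear receptor that binds DNA with RXR at response elements built of a repeated AGGTCA hexamer, and CD36 is among its best-known targets.

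Cd36 (ENSMUSG00000002944) lies on chromosome 5 from 17781690 to 17888801 on the minus strand (GRCm38, as in the deposited tables), and Vldlr (ENSMUSG00000024924) on chromosome 19 from 27216484 to 27254231 on the plus strand. Fabp1 (ENSMUSG00000054422) lies on chromosome 6 from 71199827 to 71205023 and Fabp2 (ENSMUSG00000023057) on chromosome 3 from 122895072 to 122899506, both on the plus strand. Slc27a1 (ENSMUSG00000031808) lies on chromosome 8 from 71568882 to 71587302, Slc27a2 (ENSMUSG00000027359) on chromosome 2 from 126552407 to 126588243 and Slc27a4 (ENSMUSG00000059316) on chromosome 2 from 29802634 to 29817522, all on the plus strand. Slc27a5 (ENSMUSG00000030382) lies on chromosome 7 from 12988346 to 12998192 on the minus strand. The libraries were not strand specific. Fabp2 overlaps 4933405D12Rik and Slc27a2 overlaps Gm26697 on the opposite strand, and these neighbours had at most 23 and 17 reads in any library.

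Promoter windows from RefSeq (GRCm38.p6), from 250 bases before to 50 bases after a transcript start, were held for 7 of the 8 genes, and Slc27a5 was not among them. They were searched on both strands for AGGTCANAGGTCA, the direct repeat with a spacer of 1 base that PPAR and RXR bind, with mismatches counted outside the N. The Fabp1 and Cd36 windows are shown because their best matches, in capitals, were the closest among the 7 genes. Cd36 is also the member with the largest labelled knockout difference in HF males below.
Fabp1 (chr6:71199629-71199928, plus strand): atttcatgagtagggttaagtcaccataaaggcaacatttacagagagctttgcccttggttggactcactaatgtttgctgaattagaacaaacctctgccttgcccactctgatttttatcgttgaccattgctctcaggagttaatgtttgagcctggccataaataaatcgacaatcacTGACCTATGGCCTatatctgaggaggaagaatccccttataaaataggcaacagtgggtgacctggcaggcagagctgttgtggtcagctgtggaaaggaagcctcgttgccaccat
Cd36 (chr5:17835847-17836146, minus strand): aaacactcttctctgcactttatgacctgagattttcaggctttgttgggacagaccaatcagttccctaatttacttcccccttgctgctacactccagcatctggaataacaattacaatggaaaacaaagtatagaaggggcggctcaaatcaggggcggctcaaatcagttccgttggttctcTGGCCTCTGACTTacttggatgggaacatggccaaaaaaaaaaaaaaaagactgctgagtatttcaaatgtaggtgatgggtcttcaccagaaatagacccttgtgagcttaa
Read on the opposite strand, the Fabp1 match is AGGCCATAGGTCA, with 1 mismatch, from 67 to 55 bases before the start. The Cd36 match is AAGTCAGAGGCCA, with 2 mismatches, from 63 to 51 bases before the start. Of 32851 promoter windows of the same length, 0.554% held a match with at most 1 mismatch and 3.86% with at most 2. The best matches of Fabp2 and Slc27a2 had 3 mismatches, which 24.6% of all windows reach, and those of Vldlr, Slc27a1 and Slc27a4 had 4 or more. A match describes letters in the window only, and binding was not measured. The Cd36 window lies inside the gene span of the deposited tables, which holds more than a single transcript start.

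Depth was 15338239 to 22072884 reads on genes per library, and the 8 genes had between 87 (Vldlr) and 76309 (Fabp1) reads in a library. Y-linked genes and Xist matched the labelled sex in all 48 libraries. Pparg RNA was not reduced in the labelled knockout livers. Its mean was 34.2 CPM (the read count of a gene scaled for library depth) in HF male controls against 41.1 in labelled knockouts, and 32.3 against 56.3 in HFCF males, where it was higher (exact 2-sided permutation test on log2 CPM, p = 0.00216, adjusted p = 0.0108 over 5 comparisons). In females the means were 10.4 against 15.4 CPM on LF and 18.7 against 28.6 CPM on HF (exact permutation p = 0.2 and 0.0571, adjusted p = 0.25 and 0.0952). On HFCF they were 23.7 against 45.8 CPM, without overlap (a log2 difference of 0.93, exact permutation p = 0.0286, the smallest that 4 against 4 allows, adjusted p = 0.0714). The counts cover the whole gene, and the floxed exons are not given in the sources used here, so these counts do not check the deletion. The term labelled knockout is used for these groups throughout. In each of the 10 groups the library that correlated least with the rest of its group was picked out. Every group has such a library. Any library is the highest or lowest of 4 or 6 in some quantities by chance, so the choice alone does not mark it as atypical. HF male labelled knockout 6, HFCF male control 1, HF female control 1, HFCF female labelled knockout 1 and LF female control 1 are followed most in the text. The other 5 were HF male control 6, HFCF male labelled knockout 6, LF female labelled knockout 4, HF female labelled knockout 3 and HFCF female control 3. The summed recruited macrophage markers (9 genes) were 498 CPM in HFCF male labelled knockout 6 (others 617 to 1029), 338 CPM in HF female labelled knockout 3 (others 165 to 198) and 664 CPM in HFCF female control 3 (others 867 to 1049). Values without such a library are given where they change a call or a value named. Hepatocyte markers (8 genes) were high in every library, at a summed 37967 to 118568 CPM. Of 6 adipocyte markers 5 were found, with group means of their sum from 5.59 to 17.1 CPM. Adipoq, Plin1 and Retn had means under 0.1 CPM over all 48 libraries. Cfd, which encodes adipsin, was called lower in labelled knockouts of HF males (-6.79, adjusted p = 1.54e-06, edgeR) and HFCF males (-6.38, adjusted p = 5.58e-05, edgeR). In each of these comparisons 2 adipocyte markers were tested and the other was not called. The median differences of the 2 were -3.26 in HF males and -3.15 in HFCF males.

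Per kilobase of transcript, Fabp1 stood far above the other members, at a mean of 4345 CPM per kb over all 48 libraries. Slc27a5 (351), Slc27a2 (332), Fabp2 (119) and Cd36 (68.8 CPM per kb) followed, and Slc27a4 (10.6), Slc27a1 (4.74) and Vldlr (1.87) were lowest. On this per-length scale Fabp1 ranked at the 99.9th percentile of genes averaging 1 CPM or more and Vldlr at the 30.2nd. The group means of a gene differed most for Vldlr, with a ratio of 3.07 between the highest and the lowest of the 10 groups, followed by Cd36 (2.46), Slc27a1 (2.30) and Slc27a5 (1.91). Slc27a4 differed least, with a ratio of 1.37.

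**Figure D1:**
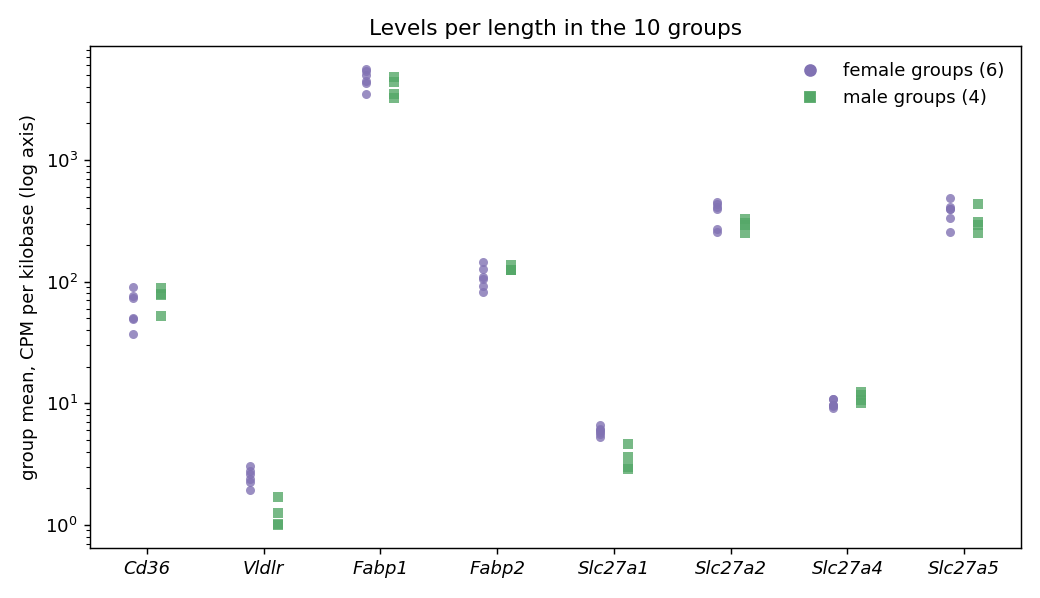
Group means of the 8 genes in CPM per kilobase (log axis), for the 6 female groups (circles) and the 4 male groups (squares). Fabp1 lies above all others, and the male groups lie below the female groups for Vldlr and Slc27a1.

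**Figure D2:**
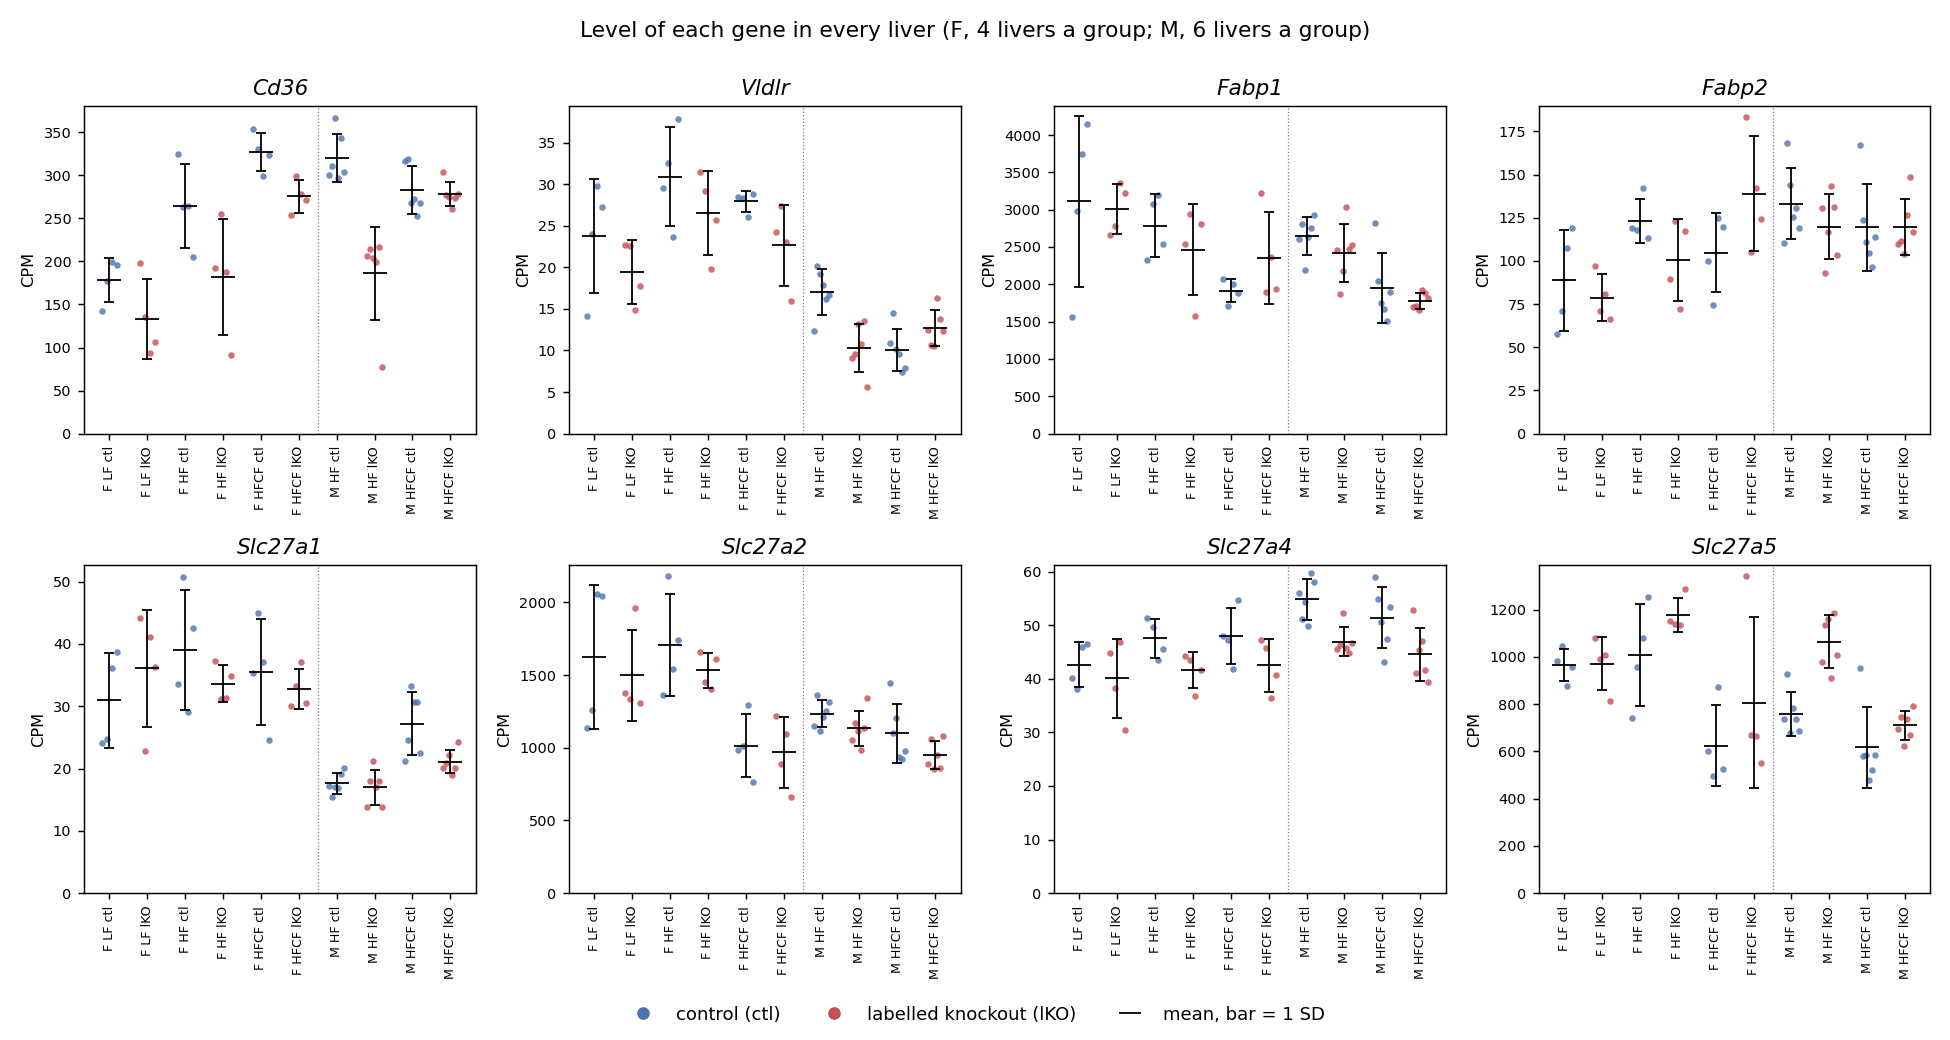
CPM (linear axes from 0) of each gene in every liver of the 10 groups, with group mean and 1 SD; blue points are controls (ctl) and red points labelled knockouts (lKO), with 4 livers in each female group and 6 in each male group. Cd36 in HF males and Vldlr and Slc27a1 between the sexes are the separations the text describes.

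In order of group means, Cd36 was highest in HFCF female controls (327 CPM), HF male controls (320), HFCF male controls (283) and HFCF male labelled knockouts (278). HFCF female labelled knockouts (276) and HF female controls (264) followed. It was lowest in HF male labelled knockouts (186), HF female labelled knockouts (182), LF female controls (179) and LF female labelled knockouts (133). Vldlr and Slc27a1 had all 6 female group means above all 4 male ones: Vldlr means were 30.9 (HF controls) to 19.4 CPM (LF labelled knockouts) in females and 17.0 (HF controls) to 10.1 CPM (HFCF controls) in males, and Slc27a1 means were 39.0 (HF controls) to 30.9 CPM (LF controls) in females and 27.2 (HFCF controls) to 17.0 CPM (HF labelled knockouts) in males. Fabp1 was highest on LF in females (3110 CPM in controls) and lowest in HFCF male labelled knockouts (1780 CPM). Fabp2 ran the other way in the LF groups, with its lowest mean of 78.8 CPM in LF female labelled knockouts and its highest of 139 CPM in HFCF female labelled knockouts, where library 1 was at 184 CPM and the other 3 at 105 to 142 CPM. Slc27a2 had its 4 highest means in the LF and HF female groups, from 1706 to 1497 CPM, and its lowest in HFCF male labelled knockouts, at 949.95 CPM. Slc27a4 ran from 54.9 CPM (HF male controls) to 40.1 CPM (LF female labelled knockouts), and Slc27a5 from 1177 CPM (HF female labelled knockouts) to 617 CPM (HFCF male controls). For every one of the 8 genes, each pair of neighbours in this order had overlapping ranges.

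edgeR's quasi-likelihood F test was run for each comparison on its own groups, with Benjamini-Hochberg adjustment over all genes tested, and called below means an adjusted p under 0.05. All 8 genes passed the filter on low counts in all 15 pairwise comparisons and 7 interaction tests. Differences are log2 differences ± standard error, labelled knockout minus control, HFCF minus HF, HF minus LF, or male minus female. Overlap of ranges was described for the members and Pparg and was not counted over all genes.

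Labelled knockout livers of HF males had less Cd36, Vldlr and Slc27a4 RNA and more Slc27a5 RNA than controls, the largest set of calls among the 5 labelled knockout comparisons. The 4 of 8 called members stand beside 18.5% of the 14041 genes tested. Cd36 ran from 297 to 366 CPM (median 307) in controls and from 77.0 to 217 CPM (median 205) in labelled knockouts, and the groups did not overlap. The difference was -0.79 ± 0.18 (adjusted p = 0.0065, edgeR). Library 6 of the labelled knockouts held the lowest Cd36 value, 77.0 CPM, with the other 5 between 199 and 217. Without it Cd36 still fell, by 0.63 on the log2 scale (adjusted p = 2.19e-05, edgeR). The same library had the lowest Vldlr (5.64 CPM) and the lowest Pparg of its group, 18.0 CPM against 38.5 to 61.6.

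Vldlr ran from 12.4 to 20.1 CPM (median 17.2) in HF male controls and from 5.64 to 13.5 CPM (median 10.2) in labelled knockouts. The ranges overlapped through control 1, and 4 of 6 labelled knockouts lay below every control. Vldlr fell by 0.73 ± 0.17 (adjusted p = 0.0071, edgeR), and by 0.60 without labelled knockout 6. Slc27a4 ran from 49.9 to 59.7 CPM (median 55.1) in controls and from 44.9 to 52.3 CPM (median 46.1) in labelled knockouts, a small decrease of -0.23 ± 0.06 (adjusted p = 0.012). Slc27a5 ran from 676 to 929 CPM (median 737) in controls and from 912 to 1185 CPM (median 1073) in labelled knockouts, and rose by 0.48 ± 0.09 (adjusted p = 0.0012). Only control 2, at 929 CPM, reached the labelled knockout range. All 4 calls were kept when any of the 12 libraries was left out. Fabp1 (-0.14 ± 0.10), Fabp2 (-0.16 ± 0.11), Slc27a1 (-0.06 ± 0.11) and Slc27a2 (-0.13 ± 0.08) were not called. The median over the 8 members was -0.15, beside 0.000204 over all genes tested.

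Cell type markers moved in the same comparison. Of 8 hepatocyte markers, 7 were called higher in the HF male labelled knockouts, with a summed level of 59979 to 83542 CPM in controls and 87752 to 102794 in labelled knockouts. Of 9 recruited macrophage markers, 5 were called lower, with sums of 260.0 to 382 CPM in controls and 195 to 270 CPM in labelled knockouts, and of 6 stellate cell markers 4 were called lower (504 to 734 against 350 to 472 CPM). Of 4 blood markers 3 were called higher, with sums of 159 to 234 CPM in controls and 160 to 779 CPM in labelled knockouts. Of 6 Kupffer cell markers 1 was called higher (Clec4f, 0.56), and of 8 endothelial markers 1 was called lower (Lyve1, -0.69). None of 4 cholangiocyte markers was called by edgeR, and 0 had an unadjusted p under 0.05. Of the intestine markers the 1 tested, Lgals4, was called lower (-0.28). The part of these shifts in the member differences was not tested. In bulk RNA, fewer cells of a type and less RNA per cell cannot be told apart.

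In HFCF males no member was called between labelled knockouts and controls, beside 2.21% of 14685 genes. At an unadjusted p under 0.05 there were 3 members, Slc27a1, Slc27a4 and Vldlr, beside 2085 of the 14685 genes. Slc27a4 ran from 43.1 to 59.0 CPM (median 52.0) in controls and from 39.3 to 52.9 CPM (median 43.5) in labelled knockouts. Its difference was -0.20 ± 0.08 (adjusted p = 0.28, edgeR). Cd36 ran from 253 to 319 CPM (median 270.4) in controls and from 261 to 304 CPM (median 276) in labelled knockouts, a difference of -0.02 ± 0.07 (adjusted p = 0.94, edgeR). Vldlr ran from 7.44 to 14.5 CPM (median 9.89) in controls and from 10.5 to 16.3 CPM (median 12.4) in labelled knockouts (0.34 ± 0.16, adjusted p = 0.35). Slc27a1 (-0.36 ± 0.11, adjusted p = 0.11) and Slc27a5 (0.21 ± 0.14, adjusted p = 0.55) crossed the threshold when control 1 was left out, at -0.42 (adjusted p = 0.0184) and 0.38 (adjusted p = 0.0102). Control 1 had a recruited macrophage sum of 331 CPM where the other 5 controls had 862 to 951, and a hepatocyte sum of 60974 CPM where they had 37967 to 55855. Leaving it out raised the share of all genes called from 2.21% to 7.09%.

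The 2 male comparisons were set against each other in an interaction test, which called 1 member, Vldlr, beside 1.56% of 15096 genes. The labelled knockout difference in Vldlr was more positive on HFCF than on HF by 1.05 ± 0.24 (adjusted p = 0.0289, edgeR), as levels were lower in labelled knockouts on HF and not called on HFCF. The call was lost without HF control 3 (adjusted p = 0.0549) and kept in the other 23 of 24 fits without a library. Cd36 differed in the same direction by 0.75 ± 0.21 and missed the threshold (adjusted p = 0.0616). Without HF labelled knockout 6 the estimate was 0.60 with an adjusted p of 0.00171. The other 6 members lay between -0.32 (Slc27a1) and 0.15 (Fabp2).

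**Figure D3:**
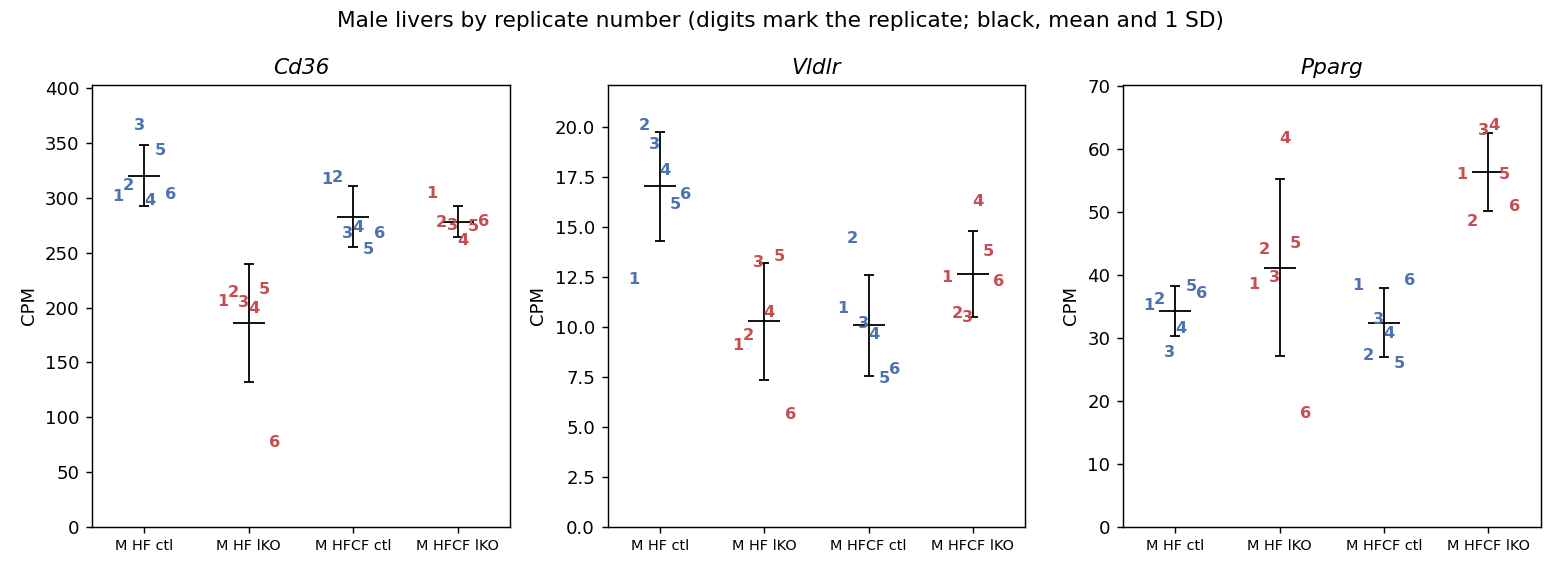
CPM of Cd36, Vldlr and Pparg in the 4 male groups (6 livers each; linear axes from 0); digits are replicate numbers, blue for controls (ctl) and red for labelled knockouts (lKO), with group mean and 1 SD in black. Labelled knockout 6 on HF is lowest of its group for all 3 genes, and Cd36 of the HF labelled knockouts lies below every other male liver.

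No female labelled knockout comparison called a member. The background was 0% of 14285 genes on LF, 0% of 14128 on HF and 0.0534% of 14980 on HFCF, and no member reached an unadjusted p under 0.05 in any of the 3. Over all genes, 355 on LF, 1135 on HF and 1340 on HFCF were under that value. Cd36 differed by -0.41 ± 0.21 on LF, -0.53 ± 0.27 on HF and -0.22 ± 0.11 on HFCF (adjusted p = 1, 0.66 and 0.56, edgeR). On LF the controls measured 143, 177, 199 and 196 CPM and the labelled knockouts 198, 135, 93.2 and 106 CPM, so that labelled knockout 1 lay among the controls. On HF the controls measured 325, 263, 264 and 205 CPM and the labelled knockouts 193, 255, 188 and 91.2 CPM. On HFCF the controls measured 354, 331, 299.8 and 324 CPM and the labelled knockouts 254, 299.6, 279 and 271 CPM, and the ranges did not overlap, by a margin of less than 1 CPM. Without HF control 1 the HF difference was -0.40, without LF control 1 the LF difference was -0.49, and without HFCF labelled knockout 1 the HFCF difference was -0.19, none of them called.

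Vldlr in females was between -0.28 (HFCF) and -0.20 (HF), and Slc27a4 between -0.18 (HF) and -0.08 (LF). Slc27a5 measured 0.02 on LF, 0.24 on HF and 0.40 on HFCF. The HFCF value rested on labelled knockout 1, at 1342 CPM where the other 3 had 549 to 668, and was 0.02 without it. That library had a hepatocyte sum of 107875 CPM against 60194 to 76327 in the other 3 and a recruited macrophage sum of 487 CPM against 834 to 893. Leaving it out also moved the HFCF difference of Fabp2 from 0.43 to 0.26 and that of Fabp1 from 0.33 to 0.12, and neither gene was called with or without it. Whether the labelled knockout difference depended on sex was tested on both diets. No member was called, beside 0% of genes on HF (15024 tested, 1590 under an unadjusted p of 0.05) and 0% on HFCF (15673 tested, 1515 under it). On HF the male minus female difference in the labelled knockout effect was -0.25 ± 0.33 for Cd36 and -0.52 ± 0.26 for Vldlr. Diet by labelled knockout tests in females called no gene either (0% for HFCF against HF, with 667 genes under an unadjusted p of 0.05, and 0% for HF against LF, with 554).

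The balance of the 2 liver acyl-CoA synthetase transporters is shown as a ratio within each library, a quantity chosen after the values were seen. Slc27a2 and Slc27a5 together made up nearly all of the summed per-kilobase level of the 4 Slc27a genes, with Slc27a5 at 47.4% ± 2.4 (SD, n = 6) in HF male controls and 58.0% ± 2.9 in HF male labelled knockouts. The Slc27a5 to Slc27a2 ratio ran from 0.802 to 1.05 (median 0.961) in HF male controls and from 1.16 to 1.61 (median 1.47) in labelled knockouts. In HFCF males it ran from 0.749 to 1.01 (median 0.840) in controls and from 1.08 to 1.20 (median 1.16) in labelled knockouts. Neither male pair overlapped, also on HFCF, where neither gene was called. Ratios of other genes were not examined for overlap. In females the ratio was 0.998 ± 0.359 and 1.02 ± 0.19 on LF, 0.926 ± 0.205 and 1.19 ± 0.08 on HF, and 0.949 ± 0.141 and 1.27 ± 0.32 on HFCF (controls, then labelled knockouts; SD, n = 4), and the ranges overlapped on all 3 diets. No LF control lay near the LF control mean. Controls 1 and 2 were at 1.33 and 1.28, and controls 3 and 4 at 0.657 and 0.720. A ratio within a library shows unequal change of the genes and does not show which of them changed.

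**Figure D4:**
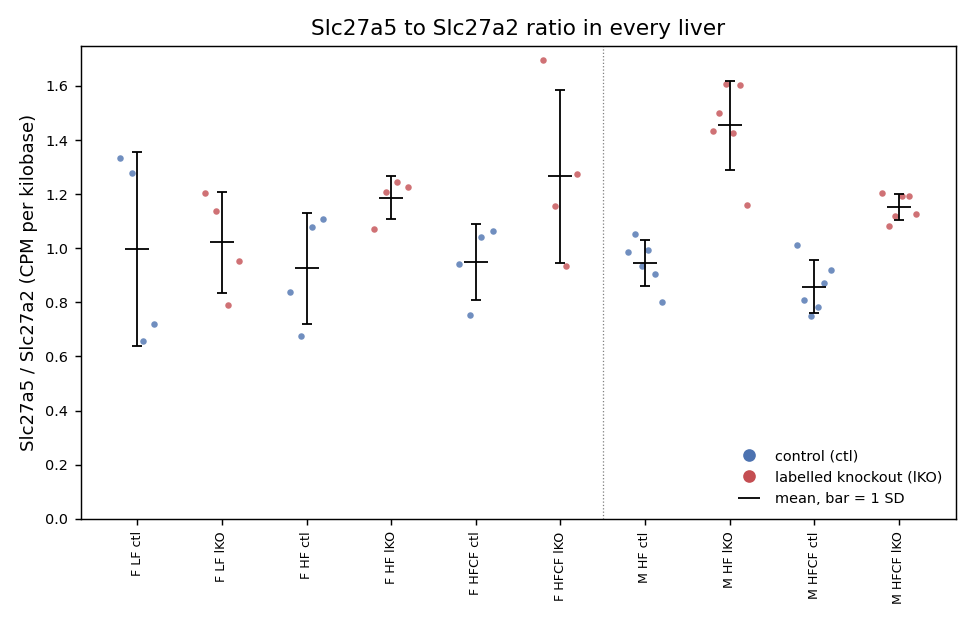
Ratio of Slc27a5 to Slc27a2 (each in CPM per kilobase; linear axis from 0) in every liver of the 10 groups, with mean and 1 SD; blue points are controls (ctl) and red points labelled knockouts (lKO). In males the highest control is below the lowest labelled knockout on both diets (1.05 against 1.16 on HF, 1.01 against 1.08 on HFCF), and in females the ranges overlap.

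The HF against LF comparison could be made in females only and called no member. In controls 0.696% of 14216 genes were called and in labelled knockouts 0.155% of 14214, and 2 members in each had an unadjusted p under 0.05. Over all genes, 2314 in controls and 1902 in labelled knockouts were under that value. Cd36 was 143 to 199 CPM in LF controls and 205 to 325 CPM in HF controls, which did not overlap (0.56 ± 0.15, adjusted p = 0.119, edgeR). The authors' deposited table gives this difference as 0.57 with an adjusted p of 0.0193. It was the only member call on which the authors' deposited table and the test used here differed among 88, and all 88 signs were the same. In labelled knockouts Slc27a5 measured 1078, 989, 1007 and 812 CPM on LF and 1151, 1137, 1136 and 1285 CPM on HF, also without overlap (0.28 ± 0.11, adjusted p = 0.29). Vldlr differed by 0.38 ± 0.21 in controls and 0.45 ± 0.17 in labelled knockouts. LF control 1 had the lowest Vldlr (14.1 CPM), Fabp1 (1558 CPM) and Cd36 (143 CPM) of its group. Without it the Cd36 difference was 0.48 and the Vldlr difference 0.20, and no member was called. LF controls 1 and 2 lay below LF controls 3 and 4 for Slc27a2 (1135 and 1257 against 2058 and 2042 CPM). The same held for Fabp2 (57.6 and 70.9 against 107 and 119 CPM) and Slc27a1 (24.1 and 24.8 against 36.2 and 38.7 CPM). Slc27a5 was higher in controls 1 and 2 (984 and 1045 against 878 and 955 CPM). Without HF control 1, which held the highest Cd36 value on HF, the Cd36 difference was 0.45 (adjusted p = 0.153, edgeR). The Slc27a5 difference in labelled knockouts was 0.21 without LF labelled knockout 4, the lowest of its group.

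Between HFCF and HF, 3 of 8 members were called in female controls, Fabp1, Slc27a2 and Slc27a5, all lower on HFCF. Their share is near that of all genes, 30.8% of 14701. Fabp1 measured 2324, 3071, 3201 and 2541 CPM on HF and 2065, 1706, 2001 and 1887 CPM on HFCF (-0.52 ± 0.13, adjusted p = 0.018, edgeR). Slc27a2 measured 1360, 2179, 1543 and 1741 CPM on HF and 985, 1009, 1291 and 764 CPM on HFCF (-0.73 ± 0.19, adjusted p = 0.019). Neither gene overlapped between the diets, and how common this was over all genes was not counted. Slc27a5 measured 741, 957, 1080 and 1255 CPM on HF and 603, 494, 873 and 527 CPM on HFCF (-0.67 ± 0.21, adjusted p = 0.038). HF control 1 was lowest on HF for all 3, with a recruited macrophage sum of 454 CPM where the other 3 had 119 to 216. Without it the 3 decreases were -0.59, -0.82 and -0.79, and Cd36 was also called, higher by 0.45 (adjusted p = 0.0108). Without HFCF control 2 none of the 3 was called. HFCF control 3 held the highest Slc27a2 and Slc27a5 of its group, and without it the 3 decreases were -0.55, -0.88 and -0.89.

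In female labelled knockouts 1 of 8 members was called, near the background of 14.5% of 14650 genes. Slc27a2 measured 1657, 1451, 1405 and 1613 CPM on HF and 1219, 890, 1097 and 662 CPM on HFCF (-0.66 ± 0.18, adjusted p = 0.036, edgeR). The groups did not overlap, and the call was lost in 6 of 8 fits without a library. Slc27a5 (-0.55 ± 0.25, adjusted p = 0.16) was called without HFCF labelled knockout 1, at -0.89 (adjusted p = 0.000571). Fabp1 there differed by -0.06 ± 0.22. HFCF labelled knockout 1 held 3223 CPM of Fabp1 where the other 3 had 1899 to 2360, and HF labelled knockout 3 held 1580 CPM where the others had 2546 to 2936. The Fabp1 difference was -0.23 without the first (adjusted p = 0.39, edgeR) and -0.22 without the second (adjusted p = 0.497, edgeR). The test of whether the diet difference depended on the labelled knockout in females gave 0.49 ± 0.28 for Fabp1 (adjusted p = 0.96).

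Male controls had lower Vldlr and Fabp1 and higher Slc27a1 on HFCF than on HF, 3 of 8 members beside 22.3% of 14475 genes. Slc27a1 ran from 15.4 to 20.1 CPM (median 17.1) on HF and from 21.1 to 33.2 CPM (median 27.7) on HFCF, with no overlap (0.63 ± 0.11, adjusted p = 0.0021, edgeR). Vldlr ran from 12.4 to 20.1 CPM (median 17.2) on HF and from 7.44 to 14.5 CPM (median 9.89) on HFCF (-0.75 ± 0.15, adjusted p = 0.0038). Fabp1 ran from 2187 to 2925 CPM (median 2691) on HF and from 1505 to 2822 CPM (median 1821) on HFCF (-0.44 ± 0.13, adjusted p = 0.026). The Fabp1 call was lost in 6 of 12 fits without a library. The HFCF maximum of Fabp1 was control 1. Without that library 7 of 8 members were called, adding Cd36 (-0.21), Fabp2 (-0.27), Slc27a2 (-0.25) and Slc27a5 (-0.45), beside 37.0% of all genes.

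Male labelled knockouts had higher Cd36 and Slc27a1 and lower Fabp1, Slc27a2 and Slc27a5 on HFCF than on HF. These 5 of 8 members stand beside 41.7% of 14314 genes. Cd36 ran from 77.0 to 217 CPM on HF and from 261 to 304 CPM on HFCF, with no overlap (0.58 ± 0.18, adjusted p = 0.017, edgeR). Without HF labelled knockout 6 the increase was 0.42 (adjusted p = 6.44e-05). Slc27a5 ran from 912 to 1185 CPM on HF and from 621 to 792 CPM on HFCF, with no overlap (-0.58 ± 0.08, adjusted p = 6.03e-05). Fabp1 fell by 0.44 ± 0.10 (adjusted p = 0.002), Slc27a2 by 0.25 ± 0.09 (adjusted p = 0.027), and Slc27a1 rose by 0.32 ± 0.10 (adjusted p = 0.023). Slc27a2 was not called in 4 of 12 fits without a library, and Slc27a1 not without HF labelled knockout 1. Vldlr differed by 0.30 ± 0.18 (adjusted p = 0.19).

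Markers moved with the HFCF diet in all 4 comparisons. Recruited macrophage markers were called higher for 9 of 9 in female controls, male controls and male labelled knockouts, and for 6 of 9 in female labelled knockouts. Their sums in males were 260.0 to 382 CPM (HF controls), 331 to 951 CPM (HFCF controls), 195 to 270 CPM (HF labelled knockouts) and 498 to 1029 CPM (HFCF labelled knockouts). In females they were 119 to 454, 664 to 1049, 165 to 338 and 487 to 893 CPM in the same order. Hepatocyte markers were called lower for 6 of 8 in female controls, 5 of 8 in male controls, 7 of 8 in male labelled knockouts and 0 of 8 in female labelled knockouts, where 4 had an unadjusted p under 0.05 (edgeR). All 4 cholangiocyte markers were called higher in all 4 comparisons. Called higher in female controls, female labelled knockouts, male controls and male labelled knockouts were 2, 5, 4 and 5 of 6 stellate cell markers, 7, 3, 1 and 3 of 8 endothelial markers, and 2, 1, 2 and 3 of 6 Kupffer cell markers, of which 2 were called lower in male labelled knockouts. Blood markers were called lower for 4 of 4 in male labelled knockouts and for 0 in the other 3 comparisons (edgeR), where 0, 0 and 1 had an unadjusted p under 0.05. The part of these shifts in the member differences was not tested.

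Whether the HFCF difference depended on sex was tested in each genotype. No member was called, beside 0.00646% of 15491 genes in controls and 0.013% of 15400 in labelled knockouts, and 4 and 2 members had an unadjusted p under 0.05. Over all genes, 2561 in controls and 1829 in labelled knockouts were under that value. In controls the male minus female estimates were -0.49 ± 0.14 for Cd36, 0.76 ± 0.23 for Slc27a1, 0.58 ± 0.21 for Slc27a2 and -0.62 ± 0.22 for Vldlr, with adjusted p from 0.188 to 0.223. Without HF female control 1, Cd36 (-0.60), Slc27a1 (0.82) and Slc27a2 (0.68) were called, and the share of all genes called was 10.8%.

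Males had less Vldlr RNA than females in all 4 sex comparisons and less Slc27a1 RNA in 3 of them. In HF controls 4 of 8 members were called, all lower in males, beside 18.1% of 14492 genes. Vldlr measured 29.6, 32.6, 23.6 and 37.8 CPM in females and ran from 12.4 to 20.1 CPM in males (-0.85 ± 0.14, adjusted p = 0.0022, edgeR). Slc27a1 measured 33.5, 50.8, 29.1 and 42.5 CPM in females and ran from 15.4 to 20.1 CPM in males (-1.14 ± 0.14, adjusted p = 0.00033). Slc27a2 measured 1360 to 2179 CPM in females and 1115 to 1360 CPM in males, and the lowest female and the highest male were level (-0.46 ± 0.12, adjusted p = 0.019). Slc27a5 (-0.41 ± 0.13) lay at the threshold, with an adjusted p of 0.04997, and was called in 2 of 10 fits without a library. Without HF female control 1, Cd36 (0.40) and Slc27a4 (0.25) were called higher in males, and the share of all genes called rose to 34.4%.

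In HF labelled knockouts 3 of 8 members were called lower in males, beside 14.3% of 14260 genes. Vldlr measured 31.5, 29.2, 19.8 and 25.7 CPM in females and ran from 5.64 to 13.5 CPM in males (-1.37 ± 0.20, adjusted p = 0.0008, edgeR). Slc27a1 measured 37.3, 31.1, 31.3 and 34.8 CPM in females and ran from 13.8 to 21.2 CPM in males (-0.998 ± 0.115, adjusted p = 0.00018). Slc27a2 differed by -0.45 ± 0.09 (adjusted p = 0.0061). Of these 3 genes none overlapped between the sexes, and the share of all genes without overlap was not counted. Slc27a4 did not overlap either, in the other direction, at a mean of 47.0 CPM in males and 41.6 CPM in females. It was not called (0.17 ± 0.07, adjusted p = 0.11, edgeR). In HFCF controls 1 member was called, beside 2.63% of 15054 genes: Vldlr measured 28.5, 28.3, 26.1 and 28.8 CPM in females and ran from 7.44 to 14.5 CPM in males (-1.47 ± 0.15, adjusted p = 0.00015). Slc27a1 there was -0.39 ± 0.16 (adjusted p = 0.29). In HFCF labelled knockouts 2 members were called, beside 5.40% of 15017 genes, Vldlr (-0.85 ± 0.16, adjusted p = 0.0096) and Slc27a1 (-0.64 ± 0.09, adjusted p = 0.0013). Vldlr there measured 24.3, 27.4, 23.1 and 15.9 CPM in females and 10.5 to 16.3 CPM in males, which overlapped. Sex comparisons rest on males and females whose separate handling is not described in the sources used here, so that sex and any such handling cannot be told apart. By edgeR no recruited macrophage marker was called in any of the 4 (3, 3, 3 and 0 of 9 had an unadjusted p under 0.05), and 1, 1, 0 and 0 of 8 hepatocyte markers were called lower in males.

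**Figure D5:**
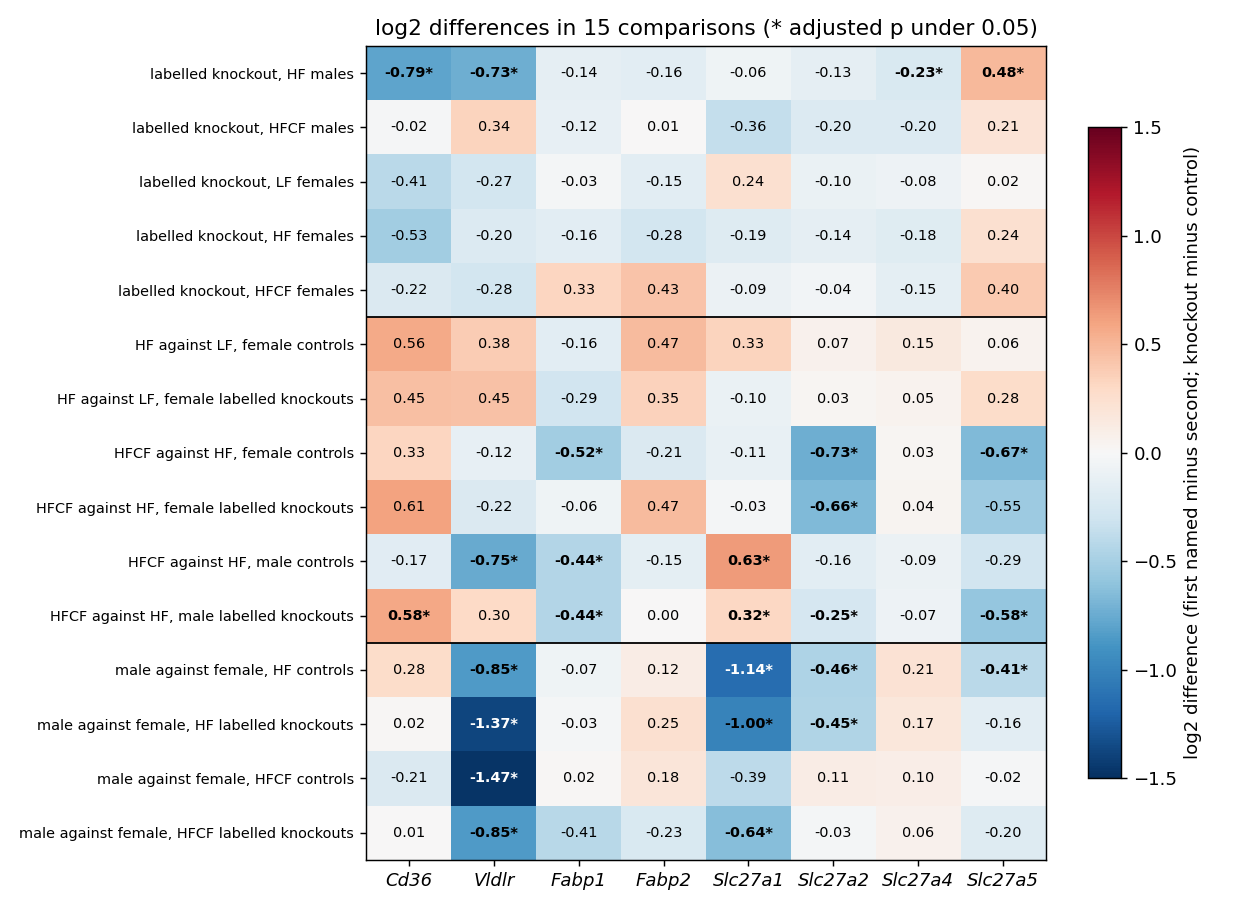
log2 differences of the 8 genes (columns) in the 15 pairwise comparisons (rows), labelled knockout minus control or the group named before "against" minus the group named after it; red is higher and blue lower, and asterisks mark an adjusted p under 0.05 (edgeR). Vldlr is lower in males in all 4 sex comparisons, and calls among the labelled knockout comparisons appear in HF males alone.

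Among 30 other genes of fatty acid uptake, binding and activation, 28 were found and 24 or 25 passed the filter. In HF males 1 was called higher and 6 lower in labelled knockouts, beside 18.5% of all genes tested. Lipoprotein lipase Lpl fell by 0.86 ± 0.14, hepatic lipase Lipc rose by 0.56 ± 0.07, and the peroxisomal fatty acid transporter Abcd2 fell by 0.39 ± 0.09. In HFCF males Lpl was also lower (-0.83 ± 0.20), and none was called in the 3 female comparisons by edgeR, where 0, 4 and 4 had an unadjusted p under 0.05. Over all genes, 355, 1135 and 1340 were under that value in these 3 comparisons. On HFCF against HF, 6 were higher and 6 lower in female controls, 2 and 3 in female labelled knockouts, 6 and 7 in male controls, and 7 and 7 in male labelled knockouts. The shares of all genes called were 30.8%, 14.5%, 22.3% and 41.7% in the same order. Lpl had the largest increase in all 4, at 2.97, 2.29, 2.30 and 2.31. Fabp5, a fatty acid binding protein also found in macrophages, rose by 2.61 in female controls, 1.18 in male controls and 1.98 in male labelled knockouts. In females it was not highest on HFCF: means were 72.2 CPM (SD 74.7) in LF controls and 139 CPM (SD 104) in LF labelled knockouts. The HFCF female means were 53.7 CPM in controls and 47.7 CPM in labelled knockouts. Abcd2 was lower in males than in females in HF controls (-0.80), HF labelled knockouts (-1.21), HFCF controls (-0.93) and HFCF labelled knockouts (-0.86). Fabp5 was lower in males in HFCF controls (-1.30) and HF labelled knockouts (-1.51). In HF controls its means were 9.72 CPM in males and 8.85 CPM in females. No gene of the list was called for HF against LF, where 6 had an unadjusted p under 0.05 in each genotype. Over all genes, 2314 in controls and 1902 in labelled knockouts were under it. Median differences of the list lay between -0.14 and 0.14, and medians over all genes tested between -0.02 and 0.03.

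The genes with the most similar level to each member over the 48 libraries were ranked by Pearson's r of log2 CPM among 12309 genes. The libraries share groups and scaling, so r is also given after group means were removed. Slc27a5 was nearest to Mthfd1 (r = 0.960, 0.913 within groups) and Pecr (0.960, 0.900), and Slc27a2 to Eci2 (0.923, 0.864) and Aqp9 (0.917, 0.847). Cd36 was nearest to Lgals1 (0.876, 0.746) and Mogat1 (0.846, 0.626), and Vldlr to Cyp2a22 (0.891, 0.735), Slc22a27 (0.857, 0.662) and Cyp4a14 (0.830, 0.606). Fabp1 was nearest to Pex13 (0.866, 0.796). Fabp2, Slc27a1 and Slc27a4 had no gene above 0.812, with Psmb7 (0.762), Qpct (0.812) and Ddb1 (0.807) the nearest. Among the members, Fabp1 and Fabp2 had an r of 0.217 over the libraries and 0.759 within groups, and Cd36 and Vldlr 0.116 and 0.509. Slc27a2 and Slc27a5 had 0.639 and 0.544, and Cd36 and Slc27a5 -0.54 and -0.07.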

How the data were processed

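RNA of 48 whole livers was sequenced from non strand specific libraries, and the authors deposited 11 comparison tables. Their counts are whole reads per gene with no normalization, per the file headers and values. STAR 2.6.1, HTSeq 0.6.1, DESeq2 and the GRCm38 (mm10) build are named, with no roles, per the submitters' processing notes. The deposited tables list genes with at least 2 summed reads, and 0 of 1341082 values repeated between tables differed, so they were joined into 29221 genes by 48 libraries. The normalised signal that the authors deposited was tested and equals each count over 1 factor per library, and the deposited FPKM equals counts per kilobase times 1 factor per library. The authors' deposited log2 fold changes and p-values were used only where named.

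Groups follow the sample titles. CPM used TMM factors over all 48 libraries (edgeR 4.0.16, R 4.3.3), and CPM per kilobase the deposited gene length. Each pairwise comparison was fitted to its 2 groups with filterByExpr, TMM and edgeR's quasi-likelihood F test, and each interaction to its 4 groups. Alternatives were DESeq2 1.42.0 size factors and its Wald test, no filter or at least 10 counts in every library, all groups in one fit, a fold threshold, a replicate block and leaving out each library. Named genes are the 8 members, Pparg, up to 3 called genes per comparison from the list of other transport genes by size of change (mean of at least 1 CPM), and the 3 genes most correlated with each member. The members and lists were chosen with earlier results of these data known. The fitting was tested on simulated counts. Of the named genes, 2 are not reported here.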

Additional observations from a re-analysis of the deposited data

Results flagged for a closer look

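In 80 groups of a member's values, 7 held a library far from the rest of its group (Dixon's test at the 95% level, which flags about 1 in 20 groups by chance). Cd36 was 77.0 CPM in HF male labelled knockout 6, with the other 5 at 199 to 217 CPM. Slc27a2 was 1963 CPM in LF female labelled knockout 3, with the others at 1311 to 1377 CPM. Slc27a4 was 52.3 CPM in HF male labelled knockout 3, with the others at 44.9 to 46.8 CPM. Slc27a5 stood apart in 3 groups: 953 CPM in HFCF male control 1 (others 477 to 586), 1285 CPM in HF female labelled knockout 4 (others 1136 to 1151) and 1342 CPM in HFCF female labelled knockout 1 (others 549 to 668). Vldlr was 26.1 CPM in HFCF female control 3, with the others at 28.3 to 28.8 CPM. The labelled knockout difference in Vldlr differed between the HFCF and HF diets in males by 1.05 on the log2 scale (edgeR interaction test, adjusted p = 0.0289).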

How the results depend on the processing

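Of the recomputed counts of members called, 404 stayed within 1.5 times the value reported and 30 did not, and no called difference changed direction. The 404 include counts of 0 that stayed 0, from the many comparisons that called no member. They therefore do not measure how stable the calls themselves were. The 4 calls in HF male labelled knockouts held in all 12 fits without a library and in every other fit, except that requiring an absolute log2 difference of at least 1 left 0. The same requirement left 0 members for HFCF against HF in female controls, female labelled knockouts, male controls and male labelled knockouts, 0 for males against females in HFCF labelled knockouts, and 1 for males against females in HF controls and in HF labelled knockouts. DESeq2's Wald test called 1 member, Cd36, for HF against LF in female controls, and 2, adding Cd36 to Vldlr, for the male labelled knockout by diet interaction. Samples were not treated as paired, as in no comparison did every same-numbered pair correlate above 0.1 in deviations from group means. This rule cannot exclude that some samples were paired. Same-numbered pairs of HF female controls and labelled knockouts ran from -0.155 to 0.459. With a replicate block 0 members were called for HFCF against HF in female controls and 0 in female labelled knockouts, and 1 for males against females in HFCF labelled knockouts, and counts in the other comparisons stayed within 1.5 times. Leaving out single libraries gave 0 to 2 members for the labelled knockout in HFCF males, 0 to 4 for HFCF against HF in female controls, 0 to 2 in female labelled knockouts and 2 to 7 in male controls. It gave 2 to 6 for males against females in HF controls, 0 to 2 for the male labelled knockout by diet interaction and 0 to 3 for the diet by sex interaction in controls. The number of livers, 4 a group in females and 6 in males, limits the precision. So do the reads of the lowest member, 87 to 610 a library for Vldlr. The p-values set group differences against the spread between these mice.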

Other observations

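Fabp1 and Fabp2 did not keep a constant proportion across groups. The per-kilobase ratio of Fabp1 to Fabp2 was 60.6 ± 10.7 in LF female controls and 68.3 ± 15.2 in LF female labelled knockouts (SD, n = 4). It was 39.4 ± 4.6 and 42.8 ± 4.9 in the HF female groups and 32.9 ± 6.1 and 29.5 ± 1.9 in the HFCF female groups. In males it was 35.5 ± 6.5 and 35.5 ± 3.8 on HF and 28.3 ± 0.9 and 26.2 ± 2.1 on HFCF (SD, n = 6, controls then labelled knockouts). The ratio was highest on LF and lowest on HFCF in females, and these values were picked after they were seen and were not tested. Neither gene was called for HF against LF, with Fabp1 at -0.16 ± 0.26 and Fabp2 at 0.47 ± 0.20 in controls (adjusted p = 0.79 and 0.29, edgeR). Of 5 intestine markers 3 were found, with summed means of 45.1 and 64.4 CPM in the LF female groups, 38.8 and 36.9 on HF and 28.5 and 29.6 on HFCF (controls, then labelled knockouts), and 20.4 to 25.5 CPM in the male groups. Lgals4, the 1 tested for HF against LF, differed by -0.22 in controls and -0.81 in labelled knockouts (adjusted p = 0.0937 in the latter, edgeR), Cdx2 had a mean under 0.1 CPM, and the part of these markers in the ratio was not tested.

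The spread between livers of a group differed by gene. The median coefficient of variation over the 10 groups was 10.4% for Slc27a4 and 19.5% for both Slc27a2 and Vldlr, and the highest was 44.9%, for Slc27a5 in HFCF female labelled knockouts. Slc27a1, which made up 0.465% ± 0.065 of the per-kilobase Slc27a total in HF male controls, made up 0.868% ± 0.262 in HFCF male controls (SD, n = 6) and 1.14% ± 0.31 in HFCF female controls (SD, n = 4).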
